A study of Sus scrofa with 16 samples.

Results

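Genes of brain iron transport and heme handling were examined in the hippocampus of preterm pigs with or without necrotizing enterocolitis (NEC), an inflammatory disease of the immature gut. The set was defined by name as 10 genes: TF, TFRC, FTH1, FTL, SLC40A1, SLC11A2, HMOX1, FLVCR1, CP and ACO1. Gene IDs of 7 of these were found in the expression table, as 9 of its 22815 distinct entries. The IDs of SLC11A2 and HMOX1 in the name table used were not among those of the expression table, and that name table held no ID for FTH1, so these 3 genes were not analysed here. TFRC and FTL each had 2 distinct entries under 1 gene ID. The second FTL entry was listed at 0 in every pig. SLC40A1 lay below the minimum mean of 0.5 FPKM (a level normalized by the authors to transcript length and library size), which left 7 entries of 6 genes among the 13590 tested.

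All pigs were crossbreds of Danish landrace, Large White and Duroc, were delivered before term by cesarean section, and received human donor milk and parenteral nutrition for about a week. No lesion was surgically or genetically induced, and NEC arose spontaneously in some pigs on this feeding. The labels give 5 noNEC pigs (No NEC, no visible gut lesion), 5 coNEC pigs (Co-NEC, severe lesions of the colon only) and 6 siNEC pigs (Si-NEC, severe lesions of the small intestine, with or without the colon). The left hippocampus of each pig was 1 sample, and the labels name no litter, so pigs of a group may share a sow. There were 2 females and 3 males without NEC, the same numbers in the Co-NEC group, and 3 of each sex in the Si-NEC group. Because every NEC pig was compared at the end of the feeding period, how gene expression changed over time was not measured.

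Iron reaches the brain bound to transferrin, is taken into cells through the transferrin receptor, is stored in ferritin and leaves cells through ferroportin, while a ferroxidase oxidizes it for loading onto transferrin. Within the cell, iron regulatory proteins bind the mRNAs of several of these genes and set their stability or translation according to the iron supply. Heme, the iron-containing group of hemoglobin and of many enzymes, is broken down by heme oxygenases, and heme transporters move it across membranes. The developing hippocampus is known to need iron for energy metabolism and myelination, and oligodendrocytes are known as a major source of transferrin mRNA in the brain.

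The FPKM values summed to between 544629 and 645197 in 14 pigs, and to 864931 in No NEC pig 230-15 and 823320 in Si-NEC pig 223-15. Across genes, they correlated least with the rest, with medians of 0.902 and 0.933 against 0.949 to 0.960. Some results, but not all, are also given without them. Hippocampal cell types were represented, with summed levels of the neuronal markers SYT1, MAP2 and NEFL between 742 and 1134 FPKM and of 5 oligodendrocyte genes between 514 and 1053 FPKM. The 4 astrocyte markers found summed to between 892 and 1528 FPKM, although ALDH1L1, which is among them, was listed at 0 in every pig. Read counts were not used here, so the depth behind each value is unknown. In whole tissue, fewer cells of a type and less RNA per cell cannot be told apart.

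Of these genes, FLVCR1 had the smallest unadjusted p in both comparisons with No NEC pigs, at 1.36 times their mean in Si-NEC and 1.44 times in Co-NEC pigs. The first TFRC entry was at 0.683 times the No NEC mean in Si-NEC pigs, and TF was at 1.66 times the No NEC mean in Co-NEC pigs. TF, the second TFRC entry, FTL, CP and ACO1 had intervals that included 0 in all 3 comparisons. None of the 7 entries passed an adjusted p under 0.2 in any comparison (limma with Benjamini-Hochberg adjustment over all genes). The study applied its threshold of 0.2 to another test, that of Cuffdiff, which called TF in Co-NEC pigs and more genes than limma. Its calls and those given here are therefore not like for like. In limma, an adjusted p under 0.2 called 0.00736% of all 13590 genes where either NEC group was compared with No NEC. Between the NEC groups it called 0.0147%. At an adjusted p under 0.05 the share was 0.00736% each time. An unadjusted p under 0.05 was reached by 2 of the 7 entries in Si-NEC pigs and by 1 in Co-NEC pigs, both relative to No NEC, and by 0 between the NEC groups. The shares of all genes below it were 2.61%, 3.44% and 5.64% in that order. The groups overlapped for each of the 7 entries in every comparison, whereas 0.155%, 0.464% and 0.545% of all genes had groups that did not. The Si-NEC and Co-NEC comparisons with No NEC share the same 5 No NEC pigs, so they are not independent of each other.

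**Figure D1:**
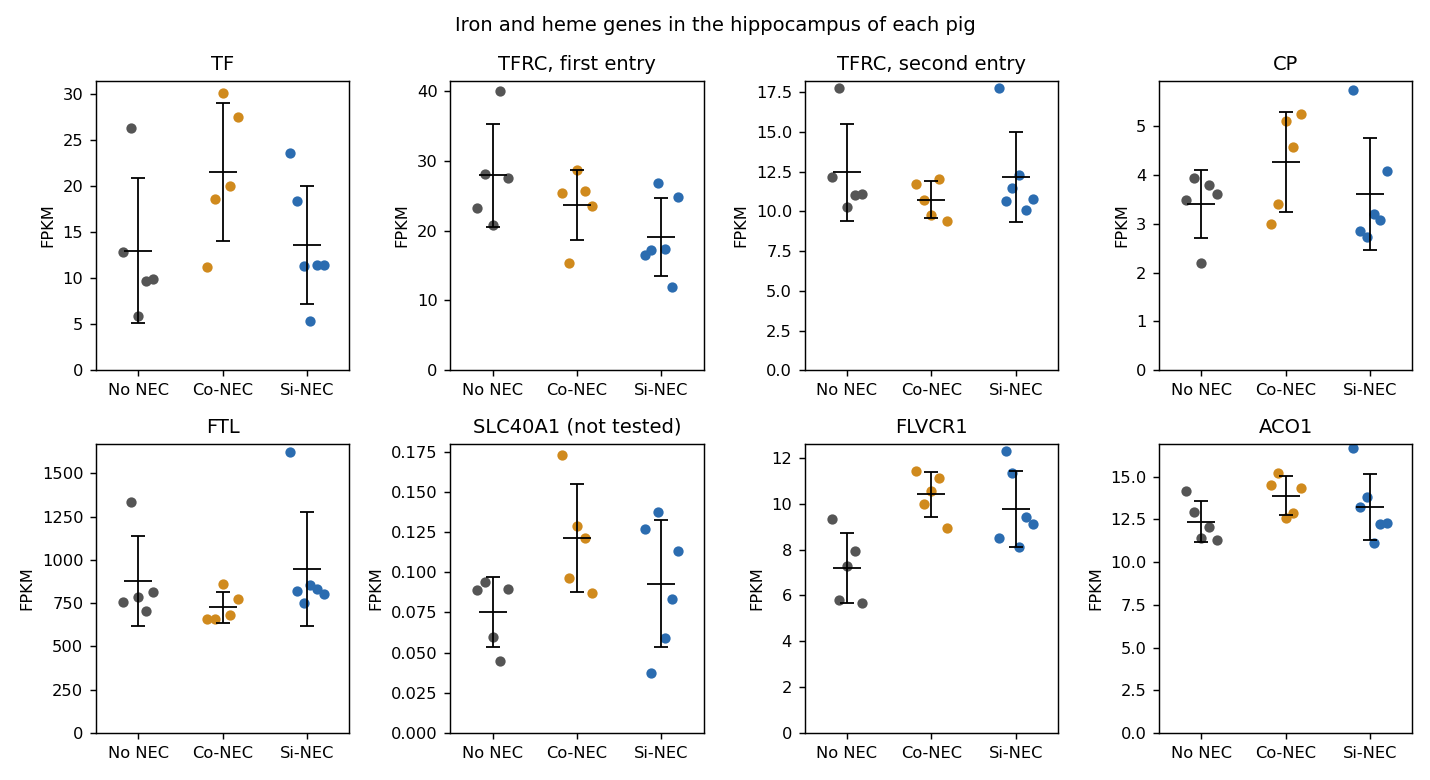
FPKM of each tested or listed entry (vertical axes, starting at 0) in every pig of the No NEC, Co-NEC and Si-NEC groups, with 1 point per pig, a horizontal mark at the mean and error bars of 1 SD. FLVCR1 was above the No NEC median of 7.30 FPKM in all 11 NEC pigs, and the highest FTL points are those of pigs 230-15 and 223-15.

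**Figure D2:**
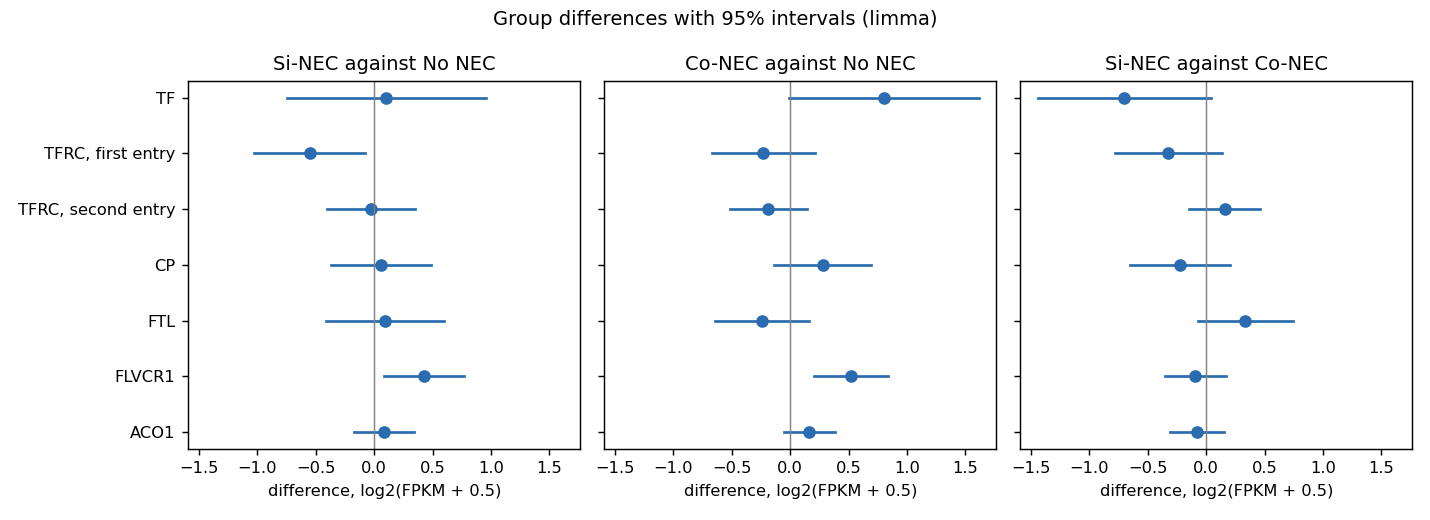
Differences between groups on the log2(FPKM + 0.5) scale (horizontal axes) for the 7 tested entries, with points at the limma estimate and lines for its 95% interval. The intervals of FLVCR1 in both comparisons with No NEC pigs and of the first TFRC entry in Si-NEC against No NEC pigs leave out 0, before adjustment for the number of genes.

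TF encodes transferrin, the carrier of ferric iron in plasma and cerebrospinal fluid. The study selected TF as a gene that differed in Co-NEC pigs from these same samples, so its difference there is not independent evidence. It was also the only gene of this set that the study followed with a qPCR assay. The paper reports TF as higher in Co-NEC pigs by that assay too, in a larger set of pigs. Those values were not analysed here, and the primers of the assay are shown to identify the transcript that was followed:
TF first primer: ctcaacctcaaaactcctggaa
TF second primer: ccgtctccatcaggtggta

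In No NEC pigs, TF was at 5.91, 9.75, 9.96, 12.9 and 26.4 FPKM. The Co-NEC pigs were at 11.2, 18.7, 20.1, 27.6 and 30.2 FPKM. The Si-NEC pigs ranged from 5.40 to 23.7 FPKM with a median of 11.4. Apart from pig 230-15 at the top of the No NEC group, 4 of the 5 Co-NEC pigs were above the other No NEC pigs, whereas the Si-NEC pigs spread over the No NEC range. TF averaged 12.98 ± 7.89 FPKM (SD, n = 5) without NEC, 21.6 ± 7.55 FPKM (n = 5) with Co-NEC and 13.6 ± 6.42 FPKM (n = 6) with Si-NEC. TF was the most variable of the tested entries over the 16 pigs, with a coefficient of variation of 49.2%.

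On the log2 scale, TF was 0.80 higher in Co-NEC than in No NEC pigs, with a 95% interval from -0.01 to 1.61. Limma gave p = 0.0516 before and 0.812 after adjustment, and the two-sided exact permutation test gave p = 0.0952. Si-NEC pigs were 0.70 below Co-NEC pigs in TF (log2 difference -0.70, interval from -1.44 to 0.04, limma adjusted p = 0.867). The difference between Si-NEC and No NEC pigs in TF was 0.10 with an interval from -0.75 to 0.96. Without pigs 230-15 and 223-15, TF was 1.09 higher in Co-NEC than in No NEC pigs (limma, unadjusted p = 0.00385, adjusted p = 0.806) and the Si-NEC against Co-NEC difference was -0.88. Without No NEC pig 253-15, which had the lowest TF of its group, the Co-NEC against No NEC difference was 0.58. Pig numbers end in 14 or 15, a suffix whose meaning the labels do not state, and the TF difference between Co-NEC and No NEC was 1.22 among pigs of suffix 14 and 0.53 among pigs of suffix 15. In the RefSeq gene table of assembly Sscrofa11.1, the symbol TF belongs to 2 genes on chromosome 13, and 1 of them has the synonym PICA, the transferrin-like pig inhibitor of carbonic anhydrase. How reads shared by such copies were assigned is not given in the sources used here, so the TF level is uncertain in that respect.

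CP encodes ceruloplasmin, a copper-containing ferroxidase that astrocytes and the choroid plexus make in the brain. Its level was 2.202, 3.48, 3.61, 3.797 and 3.93 FPKM in No NEC pigs. Co-NEC pigs were at 2.996, 3.40, 4.58, 5.10 and 5.24 FPKM, and Si-NEC pigs ranged from 2.73 to 5.74 FPKM with a median of 3.13. In the Co-NEC group 3 pigs exceeded the whole No NEC group and 2 were inside the No NEC range. The CP difference from No NEC pigs was 0.28 on the log2 scale in Co-NEC (interval from -0.13 to 0.69, limma adjusted p = 0.812) and 0.06 in Si-NEC pigs (interval from -0.37 to 0.48). Si-NEC and Co-NEC pigs differed by -0.22 in CP (interval from -0.65 to 0.20).

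TF and CP varied together from pig to pig, with correlations called at a permutation adjusted p under 0.05. Over the 16 pigs, Pearson's r between their log2 values was 0.715 (permutation p = 0.00177, adjusted p = 0.0106 over 6 correlations tested) and Spearman's rho was 0.647 (permutation p = 0.00812, adjusted p = 0.0413). With the mean of each group removed, r was 0.659, and it was 0.843 among the 6 pigs of suffix 14 and 0.737 among the 10 pigs of suffix 15. Without pigs 255-15 and 552-14, which lay farthest from the median of TF, r was 0.600 and its adjusted p was 0.0692 (permutation), so the call rests in part on those pigs. Under the 5 alternatives over 14 or 16 pigs, the permutation adjusted p ranged from 0.0102 to 0.0692 for r and from 0.0487 to 0.218 for rho. Between TF and the mean level of 5 oligodendrocyte genes (MOG, CNP, OPALIN, ASPA and CLDN11), rho was 0.612 (permutation adjusted p = 0.0413) and r was 0.527 (permutation adjusted p = 0.111). The call by rank was lost under each of the same 5 alternatives, with permutation adjusted p from 0.0703 to 0.218. Without pigs 230-15 and 223-15, this rho was 0.473 (permutation adjusted p = 0.109) and r was 0.424, and within suffixes 14 and 15 rho was 0.8286 and 0.709, not called in either. Summed over these 5 genes, the medians were 804 FPKM in No NEC, 791 in Co-NEC and 719 in Si-NEC pigs, and the part of oligodendrocyte RNA in the TF difference was not tested.

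**Figure D3:**
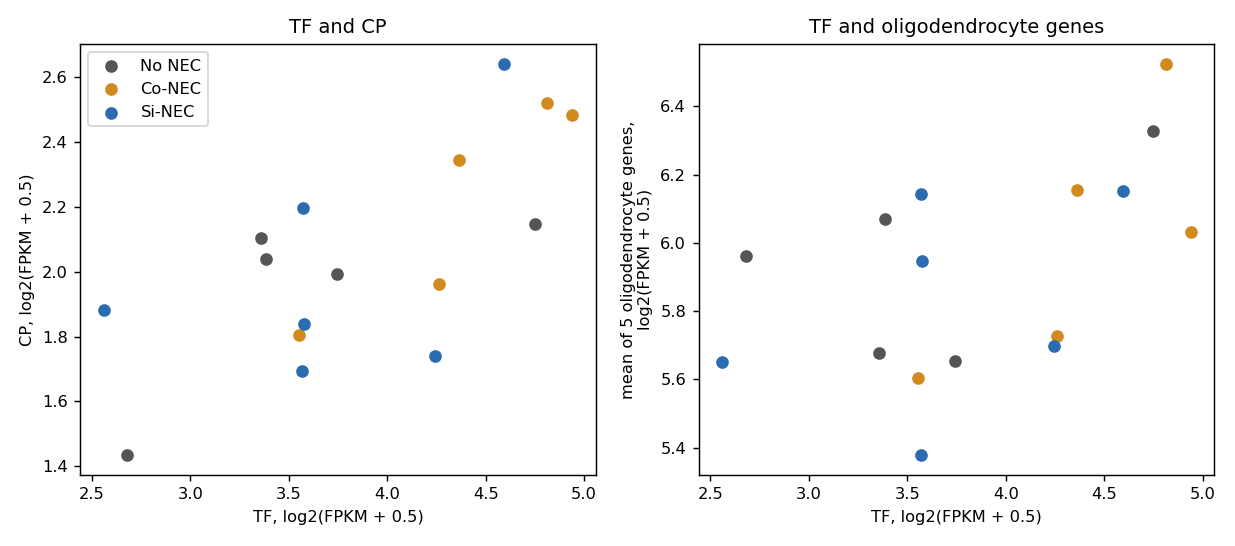
CP (left) and the mean of 5 oligodendrocyte genes (right) against TF, all as log2(FPKM + 0.5), with 1 point per pig coloured by group. The points rise from left to right in both panels, with r = 0.715 for CP and 0.527 for the oligodendrocyte genes over the 16 pigs.

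The choroid plexus, the epithelium that makes cerebrospinal fluid, also expresses TF and CP, so its markers were set beside them. Of 9 marker names 6 were found, and their summed level was 7.59 to 28.2 FPKM in No NEC, 3.14 to 16.1 in Co-NEC and 8.67 to 28.8 in Si-NEC pigs. Pig 255-15, which had the highest TF, had the lowest of these sums, 3.14 FPKM, and the choroid plexus marker TTR was listed at 0 there. Neither TF (r = -0.413, permutation adjusted p = 0.168) nor CP (r = -0.417, permutation adjusted p = 0.168) had a called correlation with TTR across the 16 pigs. Without pigs 223-15 and 230-15, r was -0.608 for TF (permutation adjusted p = 0.0526) and -0.568 for CP (permutation adjusted p = 0.0644). Leaving out pigs 255-15 and 552-14, farthest from the median TF, gave r = -0.015 between TF and TTR, and leaving out pigs 223-15 and 253-15, farthest from the median CP, gave r = -0.586 between CP and TTR (permutation adjusted p = 0.0692).

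TFRC encodes the transferrin receptor, through which cells and the endothelium of brain vessels take up transferrin-bound iron. Its gene ID had a first entry with a mean of 23.3 FPKM and a second with a mean of 11.8 FPKM over the 16 pigs, and the table does not say which transcript or locus each stands for. The first entry was at 20.9, 23.3, 27.6, 28.1 and 40.0 FPKM in No NEC pigs and at 15.3, 23.5, 25.3, 25.6 and 28.7 FPKM in Co-NEC pigs. Si-NEC pigs ranged from 11.95 to 26.8 FPKM with a median of 17.2, and 4 of the 6 were below every No NEC pig. The remaining Si-NEC pigs, at 24.8 and 26.8 FPKM, lay inside the No NEC range. On the log2 scale, the first TFRC entry differed by -0.55 from No NEC in Si-NEC pigs (SE 0.22, interval from -1.03 to -0.08). Limma gave p = 0.0264 before and 1.0 after adjustment, and the exact permutation test gave p = 0.0455. The same entry differed by -0.23 between Co-NEC and No NEC pigs (interval from -0.67 to 0.22) and by -0.32 between Si-NEC and Co-NEC pigs (interval from -0.78 to 0.13).

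The second TFRC entry did not follow the first. It was at 10.3, 11.003, 11.1, 12.2 and 17.8 FPKM in No NEC pigs and at 9.40, 9.76, 10.7, 11.7 and 12.1 FPKM in Co-NEC pigs. Si-NEC pigs ranged from 10.1 to 17.7 FPKM with a median of 11.1, so the 3 groups overlapped almost fully. Its Si-NEC against No NEC difference was -0.03 on the log2 scale with an interval from -0.41 to 0.35. The ratio of the first to the second TFRC entry was 1.58 to 3.64 in No NEC (median 2.03), 1.43 to 2.95 in Co-NEC (median 2.17) and 0.931 to 2.34 in Si-NEC pigs (median 1.51). With both entries summed, which was chosen after seeing the data, TFRC differed by -0.37 between Si-NEC and No NEC pigs (limma, unadjusted p = 0.0487).

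Single pigs bore on the first TFRC entry. Without No NEC pig 540-14, the highest at 40.0 FPKM, the Si-NEC against No NEC difference was -0.42 (limma, unadjusted p = 0.0758), and without Si-NEC pig 539-14, the lowest, it was -0.43 (unadjusted p = 0.0559). It was -0.93 among pigs of suffix 14 and -0.32 among pigs of suffix 15. Immature red cells carry much transferrin receptor, so erythroid genes were set beside TFRC. ALAS2, the erythroid form of the first enzyme of heme synthesis, had r = 0.374 with the first entry (permutation adjusted p = 0.183) and -0.03 with the second (permutation adjusted p = 0.895). The summed level of 4 of 8 erythroid markers found was 88.5 to 1293 FPKM in No NEC, 77.1 to 328 in Co-NEC and 25.2 to 250.3 in Si-NEC pigs. Its medians rose in that order, at 133, 185 and 204 FPKM, and none of the 4 was at 0 in all pigs. Si-NEC pig 539-14 had the lowest erythroid sum, 25.2 FPKM, and the lowest first TFRC entry, while No NEC pig 550-14, with the highest sum, had a first TFRC entry of 27.6 FPKM.

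FTL encodes the light chain of ferritin, the protein shell in which cells store iron. Of all 13590 entries tested, 99.5% had a lower mean than FTL, which averaged 857 FPKM and was by far the most abundant of these genes. No NEC pigs were at 705, 755, 785, 812 and 1337 FPKM. Co-NEC pigs were at 658, 660.5, 679, 773 and 858 FPKM, and Si-NEC pigs ranged from 753 to 1621 FPKM with a median of 827. The top No NEC value belonged to pig 230-15 and the top Si-NEC value to pig 223-15, the pigs with the highest FPKM sums. The remaining 14 pigs lay between 658 and 858 FPKM.

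Si-NEC pigs were 0.34 above Co-NEC pigs in FTL on the log2 scale (interval from -0.07 to 0.74, limma adjusted p = 0.867, exact permutation p = 0.0693). Without pigs 230-15 and 223-15, that FTL difference was 0.17. The FTL difference between Co-NEC and No NEC pigs was -0.24 with all pigs and -0.08 without those 2. Between Si-NEC and No NEC pigs it was 0.09 with an interval from -0.41 to 0.60. The heavy chain, FTH1, was not analysed here, so the level of ferritin mRNA is described by 1 of its subunits.

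SLC40A1 encodes ferroportin, the known exporter of iron from cells. Its level was low in every pig, at 0.0448, 0.0595, 0.0888, 0.0895 and 0.0940 FPKM in No NEC pigs. Co-NEC pigs were at 0.0870, 0.0961, 0.121, 0.128 and 0.173 FPKM, and Si-NEC pigs ranged from 0.0375 to 0.137 FPKM with a median of 0.0981. In all, 7 of the 11 NEC pigs exceeded the highest No NEC pig and 1 was below the lowest. With no filter on low values, SLC40A1 differed by 0.11 on the log2 scale between Co-NEC and No NEC pigs (limma, unadjusted p = 0.0330, adjusted p = 0.811). At these levels the offset of 0.5 FPKM makes the log2 difference much smaller than the ratio of the means, 0.121 to 0.0753 FPKM, and the precision of such low values is unknown.

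FLVCR1 encodes a membrane transporter first described as an exporter of heme and since also known to carry choline. No NEC pigs were at 5.67, 5.79, 7.30, 7.96 and 9.33 FPKM. Co-NEC pigs were at 8.94, 9.99, 10.6, 11.1 and 11.5 FPKM, and Si-NEC pigs ranged from 8.11 to 12.3 FPKM with a median of 9.26. In the Co-NEC group 4 of 5 pigs and in the Si-NEC group 3 of 6 pigs exceeded all 5 No NEC pigs. The overlap with both NEC groups came from No NEC pig 228-15 alone, at 9.33 FPKM, since the other No NEC pigs were at most at 7.96 FPKM and the lowest NEC pig was at 8.11 FPKM.

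FLVCR1 averaged 7.21 ± 1.54 FPKM (SD, n = 5) without NEC, 10.4 ± 0.997 FPKM (n = 5) with Co-NEC and 9.79 ± 1.66 FPKM (n = 6) with Si-NEC. Against No NEC pigs, FLVCR1 was 0.52 higher in Co-NEC pigs on the log2 scale (SE 0.14, interval from 0.20 to 0.84). Limma gave p = 0.00433 before and 0.812 after adjustment, and the exact permutation test gave p = 0.0159, where 0.00794 is the smallest value that 5 against 5 pigs allow. In Si-NEC pigs it was 0.43 higher (SE 0.16, interval from 0.08 to 0.77), with limma p = 0.0187 before and 1.0 after adjustment and an exact permutation p = 0.0238. Si-NEC and Co-NEC pigs differed by -0.09 in FLVCR1 with an interval from -0.35 to 0.16. Within suffix 14, the FLVCR1 difference from No NEC was 0.54 in Co-NEC and 0.43 in Si-NEC pigs, and within suffix 15 it was 0.51 and 0.41. Without pigs 230-15 and 223-15 it was 0.45 in Co-NEC and 0.39 in Si-NEC pigs. Without No NEC pig 550-14, the lowest, the Si-NEC difference was 0.35 (limma, unadjusted p = 0.0547). Scaling every pig to the same FPKM sum, chosen after seeing the data, gave 0.65 for Co-NEC and 0.42 for Si-NEC, and it moved the median difference of all genes between Co-NEC and No NEC pigs from 0.01 to 0.13, so that FLVCR1 lay 0.52 above that median.

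ACO1 encodes the cytosolic aconitase that, without its iron-sulfur cluster, serves as iron regulatory protein 1. It varied least of the tested entries, with a coefficient of variation of 11.7% over the 16 pigs. No NEC pigs were at 11.3, 11.4, 12.1, 12.9 and 14.2 FPKM, and Co-NEC pigs were at 12.6, 12.9, 14.4, 14.5 and 15.2 FPKM. Si-NEC pigs ranged from 11.1 to 16.7 FPKM with a median of 12.8. The groups overlapped, although 3 Co-NEC pigs exceeded all 5 No NEC pigs. ACO1 was 0.16 higher in Co-NEC than in No NEC pigs (interval from -0.06 to 0.38, exact permutation p = 0.0714) and 0.09 above No NEC in Si-NEC pigs (interval from -0.17 to 0.34).

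By level per transcript length, the order of the tested entries was FTL, first TFRC entry, TF, ACO1, second TFRC entry, FLVCR1 and CP, with means over all pigs of 857, 23.3, 15.9, 13.2, 11.8, 9.18 and 3.75 FPKM. The ranges of the entries from first TFRC to FLVCR1 overlapped across pigs, and whether neighbours in the middle of this order differ within pigs was not tested. FTL stood apart in every pig, and CP was below FLVCR1 in every pig.

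Beyond these genes, 61 names of iron and heme handling were listed, of which 41 were found and 35 entries of 34 genes were tested. In Si-NEC against No NEC pigs, 15 entries were higher and 20 lower, with a median log2 difference of -0.02 beside 0.02 over all entries tested. In Co-NEC against No NEC pigs, the counts were again 15 higher and 20 lower, with a median of -0.07 beside 0.01. In Si-NEC against Co-NEC pigs, 23 were higher and 12 lower, with a median of 0.07 beside 0.00. No entry of this list passed an adjusted p under 0.2 (limma), and at an unadjusted p under 0.05 there were 1, 0 and 0 entries in the 3 comparisons. By direction, the share of entries above 0 among all tested was 53.8%, 52.1% and 50.1%.

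The entry below an unadjusted p of 0.05 was FLVCR2, the close relative of FLVCR1. No NEC pigs were at 0.989, 1.56, 1.99, 2.02 and 2.97 FPKM and Co-NEC pigs at 0.707, 0.849, 1.39, 1.94 and 2.49 FPKM. Si-NEC pigs ranged from 0.545 to 1.52 FPKM with a median of 0.876. All 6 Si-NEC pigs were below 4 of the 5 No NEC pigs, and 3 were also below pig 230-15, the lowest of that group. On the log2 scale, FLVCR2 differed by -0.72 from No NEC in Si-NEC pigs (SE 0.25, interval from -1.27 to -0.17). Limma gave p = 0.0151 before and 1.0 after adjustment, and the exact permutation test gave p = 0.0346. In Co-NEC pigs FLVCR2 spread over the No NEC range. In Si-NEC pigs, FLVCR1 thus lay above and FLVCR2 below the No NEC mean, each past an unadjusted and neither past the adjusted threshold. The Co-NEC means of both genes went in the same directions, there with only FLVCR1 past the unadjusted threshold.

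**Figure D4:**
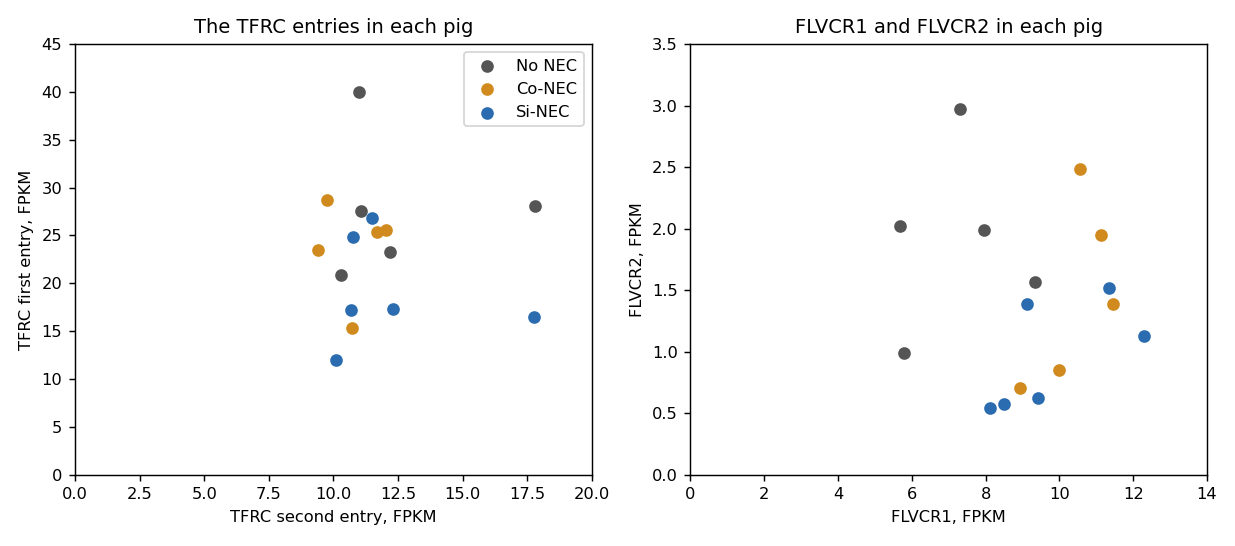
FPKM of the first against the second TFRC entry (left) and of FLVCR2 against FLVCR1 (right), with 1 point per pig coloured by group as in the left panel's legend. For the first TFRC entry, 4 of 6 Si-NEC pigs lie below 20.9 FPKM and the others at 24.8 and 26.8 FPKM. For FLVCR2, all 6 lie at or below 1.52 FPKM, as do Co-NEC pigs at 0.707, 0.849 and 1.39 FPKM.

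Among heme synthesis genes, 2 of 8 entries were above and 6 below the No NEC level in Si-NEC pigs, and 3 were above and 5 below it in Co-NEC pigs. UROS, uroporphyrinogen synthase, was at 39.5, 39.6, 39.9, 41.0 and 75.9 FPKM in No NEC pigs and at 37.0, 37.5, 38.4, 38.6 and 39.4 FPKM in Co-NEC pigs. These groups did not overlap (exact permutation p = 0.00794, the smallest that 5 against 5 pigs allow), as was the case for 0.464% of all genes tested, but the gap between them was narrow. The log2 difference of UROS was -0.25 with pig 230-15, at 75.9 FPKM (interval from -0.63 to 0.13, limma unadjusted p = 0.176). Without that pig it was -0.07. PPOX, protoporphyrinogen oxidase, averaged 38.0 ± 3.67 FPKM (SD, n = 5) without NEC, 34.2 ± 1.22 FPKM (n = 5) with Co-NEC and 34.1 ± 2.36 FPKM (n = 6) with Si-NEC. Its log2 difference from No NEC pigs was -0.14 in Co-NEC (interval from -0.34 to 0.05, limma unadjusted p = 0.133, exact permutation p = 0.0397). In Si-NEC pigs it was -0.15 (interval from -0.36 to 0.05, limma unadjusted p = 0.135, exact permutation p = 0.0541). ALAS2 averaged 2.32 FPKM in No NEC pigs, of which pig 550-14 had 7.49, and 0.793 FPKM in Si-NEC pigs. Its log2 difference was -0.74 with an interval from -1.86 to 0.39. The study had selected ALAS2 as lower in Si-NEC pigs from these same samples. The paper reports it as lower there by qPCR too, in a larger set of pigs whose values were not analysed here. CPOX, an enzyme between UROS and PPOX, differed by -0.19 between Si-NEC and Co-NEC pigs (interval from -0.49 to 0.10). Leaving out 1 pig at a time gave CPOX differences from -0.29 to -0.13.

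Of the uptake and reduction genes, relative to No NEC, STEAP2, a metalloreductase, was 0.27 higher in Co-NEC (interval from -0.06 to 0.61) and 0.21 higher in Si-NEC pigs (interval from -0.11 to 0.53). TFR2, the second transferrin receptor, differed by -0.28 between Co-NEC and No NEC pigs (interval from -0.67 to 0.10). HEPH, the ferroxidase hephaestin, was 0.27 above No NEC in Si-NEC pigs (interval from -0.13 to 0.67). BLVRA, the biliverdin reductase that acts after heme oxygenase, differed by -0.32 between Co-NEC and No NEC pigs (interval from -0.82 to 0.17), and by -0.09 without pig 230-15, at 89.003 FPKM. In Si-NEC against Co-NEC pigs, the mitochondrial transporters ABCB8 and ABCB10 differed by 0.29 and -0.18, and BMP6, an inducer of hepcidin, by 0.17. Every interval in this paragraph that is given included 0. Of the genes that regulate HMOX1, the repressor BACH1 differed from No NEC pigs by 0.21 in Co-NEC and 0.15 in Si-NEC. In the same order, the activator NFE2L2 differed by 0.06 and 0.16, and the NFE2L2 inhibitor KEAP1 by 0.09 and -0.00025. HMOX2, the constitutive heme oxygenase, had medians of 72.3, 70.0 and 75.2 FPKM in No NEC, Co-NEC and Si-NEC pigs.

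**Figure D5:**
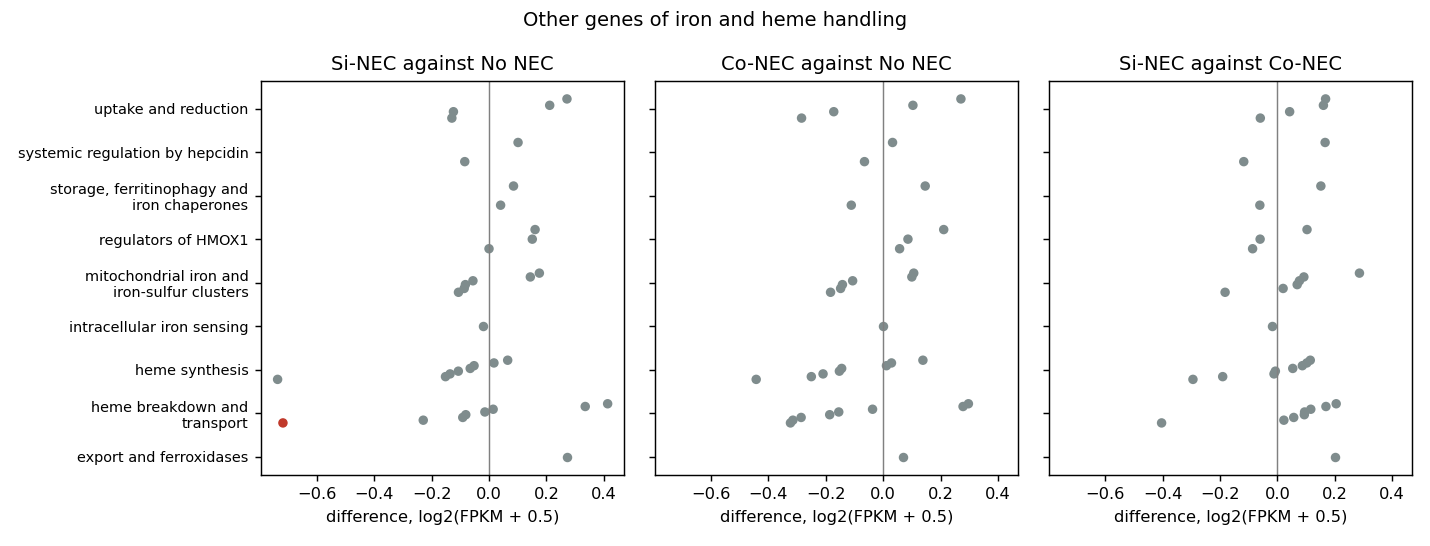
Differences between groups on the log2(FPKM + 0.5) scale (horizontal axes) for the 35 tested entries of the wider list, grouped by role on the vertical axis, with 1 point per entry and red for an unadjusted p under 0.05. The single red point is FLVCR2 at -0.72 in Si-NEC against No NEC pigs.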

How the data were processed

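RNA from the left hippocampus of 16 pigs was measured, and the labels gave the groups. The authors aligned reads to Sscrofa10.2 with TopHat2 2.1.1, estimated levels with Cufflinks 2.2.1 and deposited FPKM per gene and pig. Any scaling between pigs is not given in the sources used here. The library kit does not mark strand. For entries under 0.1 FPKM, the ratios of each pig to a reference pig did not gather at a shared value. At most 16.3% fell in the same bin of 0.02 on the log2 scale. No depth, counting error or detection limit was therefore taken from low values.

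Gene IDs were joined to symbols through a reference name table, and 1779 entries identical to another were removed. Those averaging 0.5 FPKM or more were compared on log2(FPKM + 0.5), which understates changes of low genes, pairwise without covariates, in limma 3.58.1 (lmFit, eBayes with trend) and R 4.3.3. The fit was tested on simulated data. P-values were adjusted by Benjamini-Hochberg over all 13590 entries, with a threshold of 0.2, which the study applied to Cuffdiff. Single genes also had exact two-sided permutation tests on log2 means. Correlations had 100000 permutations and were called at an adjusted p under 0.05. Tables and plots used Python 3.11.15, numpy 2.4.6, pandas 2.3.3, scipy 1.17.1 and matplotlib 3.10.9. Limma p-values set group differences against the spread between pigs, moderated across genes, and permutation p-values set results against relabelled pigs. Both treat pigs as independent, although some may share a sow.

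The genes named were the set itself and, from the wider list, those with an unadjusted p under 0.05 and the 5 with the smallest p in each comparison. STEAP3, BACH1, NFE2L2, KEAP1 and HMOX2 were named after their values were seen. The set and lists were chosen with earlier results of these data known. From the lists, 2 genes are not reported here and were left out of list counts and means after their values were seen. Pairs with FTH1 or HMOX1, genes not matched, and the pairing of SLC40A1 with them, were left out of the correlations. Alternatives were other pseudocounts, filters, scalings, variance models and covariates (sex, suffix), array weights, all groups in one fit, pigs of 1 suffix and leaving out each pig. Leaving out pigs 223-15 and 230-15 together, scaling to equal FPKM sums and summing the TFRC entries were added after seeing the data.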

Additional observations from a re-analysis of the deposited data

Results flagged for a closer look

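Dixon's criterion was applied to 60 groups of FPKM values, and 11 held a pig far from the others. Its rate of about 1 in 20 by chance holds for independent, normally distributed values. The same pigs recur in these groups, so the count cannot be set against that rate. FTL was highest in No NEC pig 230-15 at 1337 FPKM (next 812) and in Si-NEC pig 223-15 at 1621 FPKM (next 853). The second TFRC entry was highest in the same pigs, at 17.8 FPKM in 230-15 (next 12.2) and 17.7 FPKM in 223-15 (next 12.3). UROS was also highest in them, at 75.9 FPKM in 230-15 (next 41.0) and 56.7 FPKM in 223-15 (next 42.4). BLVRA in No NEC pig 230-15 was at 89.003 FPKM (next 43.6). CPOX in Si-NEC pig 223-15 was at 16.9 FPKM (next 12.02). These 8 of the 11 values thus belong to the pigs with the highest FPKM sums, and the part of that sum in the values was not tested.

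CP was lowest in No NEC pig 253-15 at 2.202 FPKM (next 3.48). ALAS2 was highest in No NEC pig 550-14 at 7.49 FPKM (next 2.05), the pig with the highest summed erythroid level, 1293 FPKM. STEAP2 was lowest in Co-NEC pig 255-15 at 4.12 FPKM (next 5.56).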

How the results depend on the processing

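No entry of the set passed an adjusted p under 0.2 in any setting tried. FLVCR1 was higher in both NEC groups throughout, by 0.44 to 0.65 in Co-NEC (unadjusted p under 0.05 in 25 of 26 settings) and 0.35 to 0.52 in Si-NEC pigs (23 of 27). Of 572 gene differences under the settings that keep all pigs or drop several, 565 kept their sign. For CP in Si-NEC against No NEC pigs the sign turned with array weights (-0.085), in suffix 14 (-0.053) and without pigs 223-15 and 230-15 (-0.022). It also turned for STEAP2 in Si-NEC against No NEC in suffix 14 (-0.083), the second TFRC entry in Si-NEC against Co-NEC in suffix 14 (-0.027), FLVCR1 in Si-NEC against Co-NEC with array weights (0.0045) and CPOX in suffix 15 (0.034). The r of the second TFRC entry with ALAS2 was 0.00051 after rescaling by the median of ratios and 0.180 without those pigs. Leaving out 1 pig at a time turned Si-NEC against No NEC differences, with ranges of -0.073 to 0.12 for CP, -0.073 to 0.26 for FTL, -0.12 to 0.39 for TF and -0.14 to 0.10 for the second TFRC entry. Over all genes, the count past 0.2 for Si-NEC against No NEC (1) was 2 with the suffix as covariate and in suffix 14, 4 with array weights and in suffix 15, and 1 to 3 leaving out 1 pig (3 without 540-14). For Co-NEC against No NEC (1) it was 4 with no filter, 10 in suffix 14, 3 in suffix 15, and 1 to 2 leaving out 1 pig (2 without 540-14 or 225-15). For Si-NEC against Co-NEC (2) it was 201 with array weights, 8 in suffix 14 and 1 to 12 leaving out 1 pig (12 without 547-14, 5 without 255-15), and 1 with a pseudocount of 0.1, no filter, all 3 groups in one fit, sex or suffix as covariate, an adjusted p of 0.05, without pigs 223-15 and 230-15, or scaled to equal sums. The causes were not tested. The wider list went from 0 entries at the adjusted threshold to 1 at an unadjusted p under 0.05 for Si-NEC against No NEC. Scaling to equal sums shifted the split at an unadjusted p under 0.05 from 288 higher and 179 lower to 508 and 66 for Co-NEC against No NEC, and from 441 and 326 to 155 and 1307 for Si-NEC against Co-NEC. No paired analysis was possible because the labels give each pig its own number and no number shared between groups.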

Other observations

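STEAP3, the ferrireductase that acts with the transferrin receptor in endosomes, lay below the minimum level for testing. It averaged 0.206 ± 0.127 FPKM (SD, n = 5) without NEC, 0.361 ± 0.0934 FPKM (n = 5) with Co-NEC and 0.462 ± 0.134 FPKM (n = 6) with Si-NEC. The No NEC pigs reached 0.361 FPKM and the lowest Si-NEC pig was at 0.299 FPKM, so the groups overlapped. The gene was named after its values were seen and was not tested.

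Sex was compared within groups by values alone. In No NEC pigs, TF averaged 9.40 FPKM in the 2 females and 15.4 in the 3 males, and the first TFRC entry averaged 22.1 and 31.9 FPKM. In Si-NEC pigs, TF averaged 15.8 FPKM in the 3 females and 11.4 in the 3 males, and the first TFRC entry averaged 17.01 and 21.2 FPKM. Over 42 interactions of the 7 entries with sex or pig number suffix, the smallest p was 0.179 before and 0.498 after adjustment (limma), so none was called.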
